A study of Mus musculus with 4 samples.

Results

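The 10 core clock and clock output genes were followed in lung tissue taken around melanoma metastases, in mice that lack lactoferrin and in wild-type mice. The genes were chosen by symbol: the activators Arntl and Clock, the repressors Per1, Per2, Per3, Cry1, Nr1d1, Nr1d2 and Bhlhe40, and the output gene Dbp. All 10 were found among the 21499 distinct gene symbols of the deposited tables. All 10 had an FPKM of at least 1 in all 4 libraries, so none entered the test through 1 genotype alone. FPKM counts sequenced fragments, scaled by the length of the transcript and by the number of fragments mapped in the library.

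The knockout mice lack the lactoferrin gene (Lf-/-, strain C57B/L6), and the control mice are wild type (WT) of the same strain. The labels do not say how the Lf allele was made. Mice of both genotypes, described as males aged 8 weeks, received 200000 B16-F10 cells by the tail vein and were killed 3 weeks later. B16-F10 cells, a lung-colonising melanoma line of mouse origin, form colonies there, and the tissue was cut from around the colonies. Of 10 mice per genotype in the study, 2 knockout mice and 2 wild-type mice have 1 library each. The mice were housed in 12 h of light and 12 h of darkness, and the labels give no hour of killing, so time of day could not be entered in any fit.

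The mammalian clock is a transcriptional loop that runs in nearly every cell, lung cells included. The proteins of Arntl (also called Bmal1) and Clock bind E-box sequences together and switch on the Per and Cry genes, Nr1d1, Nr1d2, Bhlhe40 and Dbp. The PER and CRY proteins then block that activation, and the NR1D proteins (REV-ERBs) repress Arntl and Cry1 through ROR elements. In peripheral tissues of mice, transcripts of Nr1d1, Dbp and the Per genes are known to peak during the day or around dusk, Cry1 later in the night, and Arntl near the end of the night. The transcript of Clock itself varies little over the day.

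Promoter sequences of the loop genes are shown with the clock-related motifs found near their start sites. RefSeq promoter windows on GRCm38.p6, from 250 bases before to 50 bases after a start site, were found for 8 of the 10 genes, 12 windows in all. Both strands were searched for the E-box CACGTG, the D-box TTATGNAA bound by the DBP family, the ROR element (GGTCA with NANNTN just before it) and the cyclic AMP response core TGACGT. None of these motifs overlapped another in the windows. Of 32851 windows of this length, 7.15% held the E-box, 3.38% the D-box, 2.45% the ROR element and 7.51% the cyclic AMP response core. The windows with a match, and those of Nr1d1 and Nr1d2, are printed below 5′ to 3′ along the gene, with matches in capitals.
Arntl, chr7:113207261-113207560, plus strand: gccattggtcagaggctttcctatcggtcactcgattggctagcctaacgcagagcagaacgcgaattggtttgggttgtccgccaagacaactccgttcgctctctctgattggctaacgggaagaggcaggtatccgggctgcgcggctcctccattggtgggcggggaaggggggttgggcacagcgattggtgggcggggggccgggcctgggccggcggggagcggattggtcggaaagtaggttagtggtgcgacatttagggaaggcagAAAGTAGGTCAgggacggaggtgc
Cry1, chr10:85185005-85185304, minus strand: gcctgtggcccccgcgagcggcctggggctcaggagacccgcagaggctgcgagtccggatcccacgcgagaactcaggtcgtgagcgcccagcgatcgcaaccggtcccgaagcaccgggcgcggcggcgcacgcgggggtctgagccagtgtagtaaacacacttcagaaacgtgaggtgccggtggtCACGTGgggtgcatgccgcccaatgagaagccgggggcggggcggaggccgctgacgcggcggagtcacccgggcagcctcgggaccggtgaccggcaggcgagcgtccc
Per1, upstream start, chr11:69098699-69098998, plus strand: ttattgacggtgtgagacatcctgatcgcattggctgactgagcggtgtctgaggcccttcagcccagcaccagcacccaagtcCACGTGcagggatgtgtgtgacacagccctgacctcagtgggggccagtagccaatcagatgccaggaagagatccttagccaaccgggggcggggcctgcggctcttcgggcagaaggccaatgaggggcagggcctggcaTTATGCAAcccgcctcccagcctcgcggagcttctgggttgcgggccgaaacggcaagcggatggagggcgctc
Per1, downstream start, chr11:69099902-69100201, plus strand: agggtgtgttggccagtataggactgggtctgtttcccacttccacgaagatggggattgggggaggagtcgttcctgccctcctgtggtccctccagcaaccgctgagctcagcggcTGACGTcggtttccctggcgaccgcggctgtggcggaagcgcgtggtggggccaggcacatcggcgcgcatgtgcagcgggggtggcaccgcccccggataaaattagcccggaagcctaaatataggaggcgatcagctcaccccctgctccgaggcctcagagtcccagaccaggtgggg
Per3, chr4:151044616-151044915, minus strand: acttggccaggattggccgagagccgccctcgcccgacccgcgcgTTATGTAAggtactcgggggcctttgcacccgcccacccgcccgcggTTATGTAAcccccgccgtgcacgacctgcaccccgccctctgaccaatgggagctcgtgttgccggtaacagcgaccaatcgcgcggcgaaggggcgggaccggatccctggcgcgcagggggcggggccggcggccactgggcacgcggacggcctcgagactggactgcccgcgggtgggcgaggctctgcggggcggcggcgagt
Nr1d1, chr11:98775328-98775627, minus strand: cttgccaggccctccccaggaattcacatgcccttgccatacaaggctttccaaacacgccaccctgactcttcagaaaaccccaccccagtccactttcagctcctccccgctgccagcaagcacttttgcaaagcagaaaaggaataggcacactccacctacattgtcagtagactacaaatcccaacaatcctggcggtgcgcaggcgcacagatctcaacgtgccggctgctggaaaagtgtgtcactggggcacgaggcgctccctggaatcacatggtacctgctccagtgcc
Nr1d2, chr14:18239057-18239356, minus strand: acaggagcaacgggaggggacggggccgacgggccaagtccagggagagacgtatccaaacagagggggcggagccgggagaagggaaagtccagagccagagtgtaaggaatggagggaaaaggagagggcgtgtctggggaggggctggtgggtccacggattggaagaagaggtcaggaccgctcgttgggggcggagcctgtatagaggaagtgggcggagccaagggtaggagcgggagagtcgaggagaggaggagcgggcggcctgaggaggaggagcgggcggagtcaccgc

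Positions of the first base of a match are counted from the start site as 0. The Arntl window held the ROR element AAAGTAGGTCA at position 26. The E-box lay at -60 in Cry1 and at -166 in the upstream Per1 window. A D-box, TTATGCAA, lay at -24 in that same Per1 window, and Per3 held a pair of D-boxes, TTATGTAA, at -205 and -158. The downstream Per1 window held the cyclic AMP response core at -132. None of the 4 motifs occurred in the windows of Clock, Dbp, Nr1d1 and Nr1d2. A match describes the letters of the window and does not show binding.

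The libraries had these features in common with other genes of the series. Values summed to 388799 and 317976 FPKM in the knockout libraries, against 400153 and 375543 FPKM in the wild-type libraries. Scgb1a1, the club cell secretoglobin gene, was listed at 0 in knockout mouse 2, and without it the sums ran from 315089 to 327216. Ltf, the lactoferrin gene, had 0.104 and 0.533 FPKM in the knockout mice, against 79.2 and 7.32 FPKM in the wild-type mice. That is the order the genotype labels call for. The Y-linked gene Eif2s3y had 24.2 and 22.0 FPKM in the knockout mice, against 0.0426 and 0 FPKM in the wild-type mice, although the labels call all of them male. Y-linked transcripts were thus present with 1 genotype alone, and that presence and the genotype cannot be told apart in any comparison here. The number of reads behind each value is unknown.

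Across the 4 libraries Nr1d1 was the highest of the 10 genes, at 21.7 to 51.0 FPKM. Bhlhe40 (10.1 to 18.1 FPKM), Per1 (4.36 to 18.0 FPKM) and Arntl (12.3 to 15.6 FPKM) came next, and their ranges overlapped. Clock (7.98 to 9.79 FPKM) lay under Arntl in every library, and its range overlapped those of Nr1d2, Cry1 and Dbp. Per2 (1.94 to 3.08 FPKM) and Per3 (1.58 to 2.29 FPKM) were the lowest, and their ranges overlapped too.

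No clock gene differed between knockout and wild-type lungs past the threshold. The genotypes were compared gene by gene with limma's moderated test on log2(FPKM + 1), with Benjamini-Hochberg adjustment over 12573 genes. Of the 10 genes 0 passed an adjusted p of 0.05, and their adjusted p ran from 0.886 to 0.996. Over all genes 3 passed (0.0239%), of which 2 were higher (0.0159%) and 1 lower (0.00795%) in the knockout. The 2 higher genes were Eif2s3y and Ddx3y (adjusted p = 0.0103 and 0.0241 by limma). Both are Y-linked and follow the presence of Y-linked transcripts given above. At an unadjusted p under 0.05 there were 3 clock genes, Nr1d1, Nr1d2 and Bhlhe40, all lower in the knockout. Of all tested genes 2.56% were lower, 2.55% higher and 5.11% either at that level. By exact permutation, with 2 mice on each side, the smallest p is 0.333.

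In the order of the libraries, 5 of the 10 genes did not overlap between genotypes, where 36.0% of all tested genes did not. Both knockout mice were below the wild-type pair for Nr1d1, Nr1d2 and Bhlhe40 (17.5% of all tested genes had this order). Both were above it for Arntl and Cry1 (18.5% of all tested genes). The other 5 genes, Clock, Per1, Per2, Per3 and Dbp, overlapped. The repressor and output genes had a median log2 difference of -0.58 over 8 genes, the activators 0.10 over 2 genes, and all genes tested -0.005. Leaving out knockout mouse 1 put the median of the repressor and output genes at -0.01, and leaving out wild-type mouse 1 put it at -0.37. Genes with the knockout below the wild type numbered 7 without knockout mouse 2 (27.8% of all tested genes), 3 without knockout mouse 1 (39.9%), and 5 in each fit that left out a wild-type mouse (32.2% for mouse 1 and 35.4% for mouse 2).

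**Figure D1:**
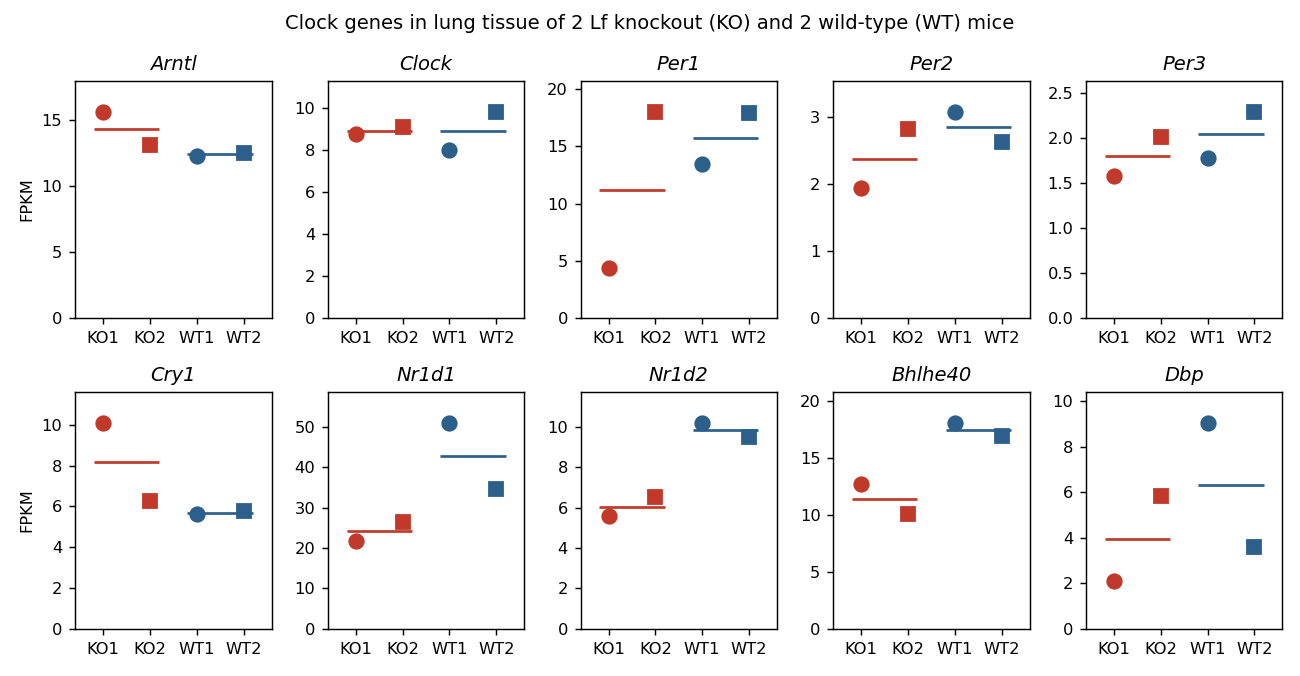
FPKM of the 10 clock genes in each library, knockout (KO, red) left of wild type (WT, blue), with circles for mouse 1, squares for mouse 2 and lines for the mean of each genotype. Nr1d1, Nr1d2 and Bhlhe40 lie lower in both knockout mice, while Per1 is low in knockout mouse 1 alone, at 4.36 FPKM.

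The activator arm differed little. Arntl, whose protein is the obligate partner of CLOCK (chromosome 7, 113207465 to 113314126, plus strand, GRCm38), had 15.6 and 13.1 FPKM in the knockout mice, against 12.3 and 12.5 FPKM in the wild-type mice. Knockout mouse 1 was the highest, and knockout mouse 2 lay just above the wild-type pair. The log2 difference of Arntl was 0.19 (95% interval -0.15 to 0.53, limma adjusted p = 0.892). Clock (chromosome 5, 76209868 to 76304792, minus strand) had 8.75 and 9.06 FPKM in the knockout mice, against 7.98 and 9.79 FPKM in the wild-type mice. The knockout values lay inside the wild-type range, with a log2 difference of 0.01 (95% interval -0.36 to 0.37).

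The REV-ERB genes were lower in both knockout mice. Nr1d1, which encodes REV-ERB alpha (chromosome 11, 98767932 to 98775333, minus strand), had 21.7 and 26.5 FPKM in the knockout mice, against 51.0 and 34.5 FPKM in the wild-type mice. The nearest mice of the 2 genotypes, at 26.5 and 34.5 FPKM, lay closer together than the wild-type mice did. Nr1d1 averaged 24.1 ± 3.39 FPKM in knockout mice and 42.8 ± 11.6 FPKM in wild-type mice (SD, n = 2 each). Its log2 difference was -0.78 (SE 0.23, 95% interval -1.38 to -0.18, unadjusted p = 0.0209 and adjusted p = 0.89 by limma). Nr1d2, which encodes REV-ERB beta (chromosome 14, 18204054 to 18239127, minus strand), had 5.58 and 6.51 FPKM in the knockout mice, against 10.2 and 9.50 FPKM in the wild-type mice. Here the genotypes lay further apart than the mice within either of them. Nr1d2 averaged 6.04 ± 0.66 FPKM in knockout mice and 9.86 ± 0.507 FPKM in wild-type mice. The log2 difference of Nr1d2 was -0.63 (SE 0.13, 95% interval -0.97 to -0.29), with an unadjusted p of 0.00569 and an adjusted p of 0.886 by limma. These intervals are not adjusted for the number of genes tested.

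Nr1d1 overlaps a neighbour. Of its 3077 annotated exon bases, 263 overlap exons of Thra, the thyroid hormone receptor alpha gene on the opposite strand, and no strand setting of the counting is given, so reads there cannot be assigned to either gene. Thra ran the other way, with 42.1 and 40.3 FPKM in the knockout mice, against 32.7 and 31.9 FPKM in the wild-type mice (log2 difference 0.34, limma adjusted p = 0.89). Thra was looked up after this overlap was found. Dbp shares 539 of 2993 exon bases with Sphk2, also antisense, which had 11.3 and 9.51 FPKM in the knockout mice, against 11.1 and 9.69 FPKM in the wild-type mice. Arntl and Bhlhe40 share 33 and 118 exon bases with antisense transcripts, and the remaining 6 genes share none. None of the 10 genes had a near-identical copy among annotated transcripts.

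Bhlhe40, a basic helix-loop-helix repressor also known as Dec1 (chromosome 6, 108660629 to 108666925, plus strand), had 12.7 and 10.1 FPKM in the knockout mice, against 18.1 and 16.9 FPKM in the wild-type mice. It was the one clock gene with its lowest value in knockout mouse 2. Bhlhe40 averaged 11.4 ± 1.81 FPKM in knockout mice and 17.5 ± 0.851 FPKM in wild-type mice. The log2 difference of Bhlhe40 was -0.59 (SE 0.15, 95% interval -0.97 to -0.20, unadjusted p = 0.0118 and adjusted p = 0.89 by limma). Bhlhe41, its paralogue Dec2, had 1.63 and 0.889 FPKM in the knockout mice, against 1.63 and 2.28 FPKM in the wild-type mice, with the same mouse lowest.

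**Figure D2:**
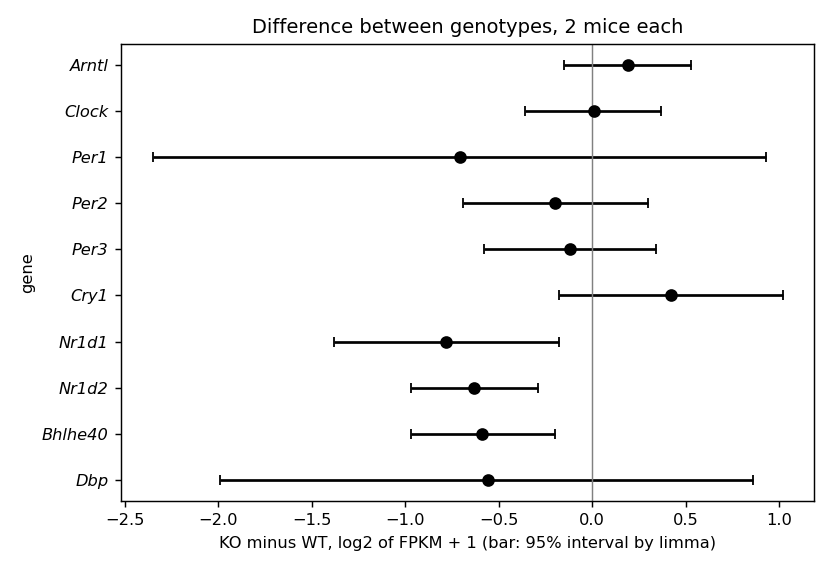
Log2 difference of FPKM + 1 between knockout and wild type for each clock gene, 2 mice each, with 95% intervals from limma that are not adjusted for the number of genes. The intervals of Nr1d1, Nr1d2 and Bhlhe40 lie below 0, and those of Per1 and Dbp are the widest, from -2.35 to 0.93 and from -1.99 to 0.86.

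Among the Period genes, which encode the repressors that carry CRY to the nucleus, Per1 varied most. Per1 (chromosome 11, 69095217 to 69109960, plus strand) had 4.36 and 18.0 FPKM in the knockout mice, against 13.5 and 17.9 FPKM in the wild-type mice. Knockout mouse 1 stood below the other 3 libraries, and knockout mouse 2 was the highest of all 4. The log2 difference of Per1 was -0.71 (95% interval -2.35 to 0.93), with 0.20 when knockout mouse 1 was left out and -1.63 when knockout mouse 2 was.

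Per2 (chromosome 1, 91415982 to 91459324, minus strand) had 1.94 and 2.83 FPKM in the knockout mice, against 3.08 and 2.63 FPKM in the wild-type mice. Per3 (chromosome 4, 151003652 to 151044665, minus strand) had 1.58 and 2.01 FPKM in the knockout mice, against 1.78 and 2.29 FPKM in the wild-type mice. Both genes were lowest in knockout mouse 1 and overlapped between genotypes, with log2 differences of -0.20 (95% interval -0.69 to 0.30) and -0.12 (95% interval -0.58 to 0.34).

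Cry1, the cryptochrome repressor with a late phase (chromosome 10, 85131700 to 85185064, minus strand), had 10.1 and 6.24 FPKM in the knockout mice, against 5.63 and 5.75 FPKM in the wild-type mice. Knockout mouse 1 stood 1.61-fold above knockout mouse 2, which lay close to the wild-type mice. The log2 difference of Cry1 was 0.42 (95% interval -0.18 to 1.02, limma adjusted p = 0.89), with 0.11 when knockout mouse 1 was left out and 0.73 when knockout mouse 2 was.

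Dbp, a transcription factor of the D-box family and a standard readout of clock phase (chromosome 7, 45705088 to 45710203, plus strand), had 2.10 and 5.83 FPKM in the knockout mice, against 9.06 and 3.61 FPKM in the wild-type mice. The mice of each genotype differed by more than the genotypes did, 0.36-fold for knockout mouse 1 over mouse 2 and 2.51-fold for wild-type mouse 1 over mouse 2. The log2 difference of Dbp was -0.56 (95% interval -1.99 to 0.86). Leaving out knockout mouse 1 gave 0.0046, leaving out wild-type mouse 1 gave -0.0017, and leaving out either mouse numbered 2 gave -1.13.

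The arms were then compared within each mouse. Knockout mouse 1 was the highest or the lowest of the 4 libraries for 8 of the 10 genes, as it was for 41.6% of all tested genes. It was highest for Arntl and Cry1, and lowest for Per1, Per2, Per3, Nr1d1, Nr1d2 and Dbp, all 6 of the genes taken as the day and dusk arm. Over all tested genes it was highest for 25.7% and lowest for 15.9%. Wild-type mouse 1 was also at an extreme for 8 of the 10 genes (41.5% of all tested genes), as the highest for Nr1d1, Nr1d2, Per2, Dbp and Bhlhe40 and the lowest for Arntl, Clock and Cry1 (25.6% and 15.9% of all tested genes). Knockout mouse 2 was at an extreme for 2 genes (58.2% of all tested genes), highest for Per1 and lowest for Bhlhe40, where it was highest for 23.8% and lowest for 34.4% of all tested genes. Wild-type mouse 2 was also at an extreme for 2 genes (58.6%), highest for Clock and Per3 and lowest for none, where it was highest for 24.8% and lowest for 33.8% of all tested genes. The knockout mice differed from each other by 1.5-fold or more for Per1, Dbp and Cry1 (14.5% of all tested genes), and the wild-type mice for Dbp (11.6% of all tested genes). The root mean square deviation from the mean over the libraries, on the log2 scale, was 0.568 for the clock genes in knockout mouse 1, beside 0.235 for all tested genes there, and 0.394 in wild-type mouse 1, beside 0.274. In the mice numbered 2 the root mean square was smaller for the clock genes. It was 0.268 beside 0.309 in knockout mouse 2 and 0.249 beside 0.316 in wild-type mouse 2. The median absolute deviation was instead larger for the clock genes in all 4 libraries. In the mice numbered 2 it was 0.157 beside 0.12 for knockout and 0.189 beside 0.122 for wild type. In the mice numbered 1 it was 0.349 beside 0.0892 for knockout and 0.203 beside 0.087 for wild type.

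**Figure D3:**
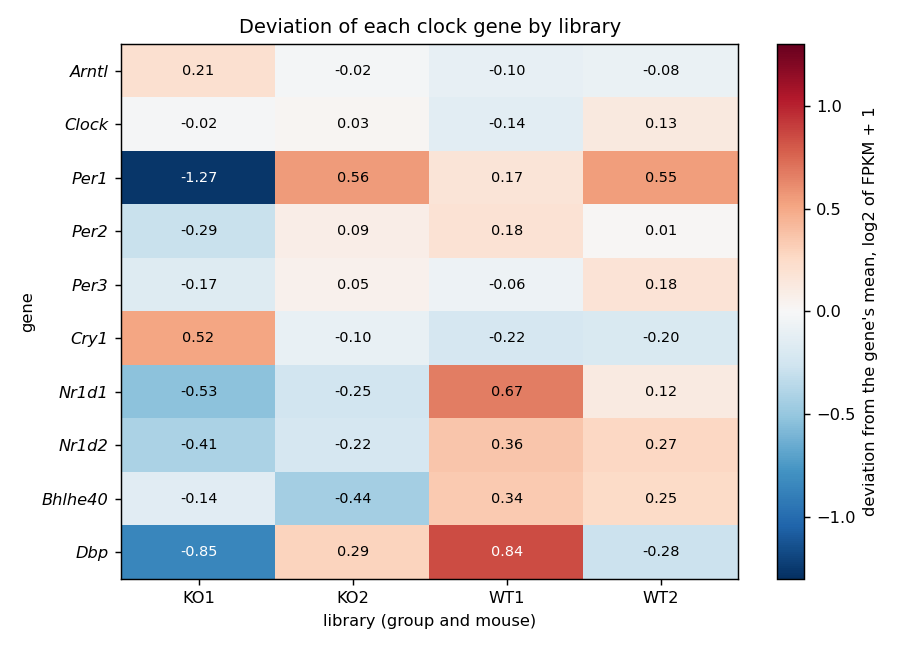
Deviation of each clock gene from its own mean over the 4 libraries, on the log2(FPKM + 1) scale, with libraries as columns and genes as rows. The column of knockout mouse 1 holds the lowest value, -1.27 for Per1, and the highest for Cry1, 0.52, while wild-type mouse 1 holds the highest for Dbp, 0.84.

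Ratios within a library do not depend on scaling between libraries. The Nr1d1 to Arntl ratio of FPKM was 1.39 and 2.03 in the knockout mice, against 4.14 and 2.76 in the wild-type mice. The Nr1d2 to Arntl ratio was 0.358 and 0.498 in the knockout mice, against 0.829 and 0.760 in the wild-type mice, and the Bhlhe40 to Arntl ratio was 0.813 and 0.772 against 1.47 and 1.35. These ratios kept the genotypes apart, which was fixed by the order of the single genes. Arntl was higher, and Nr1d1, Nr1d2 and Bhlhe40 were lower, in both knockout mice.

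The Per1 to Arntl ratio was 0.280 and 1.38 in the knockout mice, against 1.10 and 1.43 in the wild-type mice. The Dbp to Arntl ratio was 0.135 and 0.445 in the knockout mice, against 0.735 and 0.288 in the wild-type mice. For both ratios knockout mouse 1 was the lowest and knockout mouse 2 lay within the wild-type range. Set against the late gene Cry1, Nr1d1 gave ratios of 2.16 and 4.24 in the knockout mice, against 9.05 and 6.01 in the wild-type mice. The order of Nr1d1 and of Cry1 by genotype fixed the order of that ratio too.

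Over the whole arm, the mean log2(FPKM + 1) of Per1, Per2, Per3, Nr1d1, Nr1d2 and Dbp minus that of Arntl was -1.68 and -0.78 in the knockout mice, against -0.42 and -0.66 in the wild-type mice. Knockout mouse 1 was the lowest, and knockout mouse 2 lay near wild-type mouse 2. As background, Arntl and Cry1 are high while Dbp and Nr1d1 are low late in the night in mouse tissues. Whether the mice were killed at different hours was not tested, and with 1 library a mouse the hour and the mouse cannot be told apart.

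**Figure D4:**
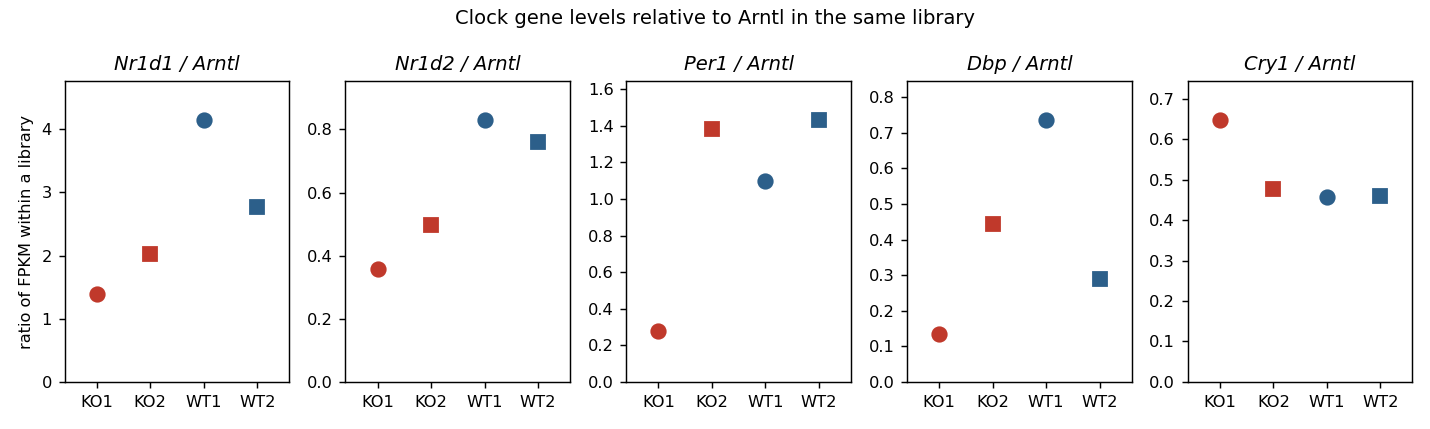
Ratio of the FPKM of Nr1d1, Nr1d2, Per1, Dbp and Cry1 to that of Arntl within each library, knockout (KO, red) left of wild type (WT, blue), with circles for mouse 1 and squares for mouse 2. The Nr1d1 and Nr1d2 ratios of both knockout mice lie under those of both wild-type mice, which the order of the single genes fixes. The Per1 ratio of knockout mouse 1 is 0.280, against 1.10 to 1.43 in the other libraries.

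Leaving out 1 library at a time moved the genes by different amounts. Nr1d1 kept a log2 difference between -1.06 and -0.51, Nr1d2 between -0.72 and -0.53, and Bhlhe40 between -0.74 and -0.44, whichever library was left out. For these genes both knockout mice lay below both wild-type mice, so the size could change but the sign could not. Without knockout mouse 1 the differences were 0.20 for Per1, 0.0046 for Dbp, -0.01 for Per2 and for Per3, 0.07 for Arntl and 0.11 for Cry1, while Nr1d1 was at -0.64, Nr1d2 at -0.53 and Bhlhe40 at -0.74. With 1 library on a side, limma takes the lone library to vary as the other genotype does.

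**Figure D5:**
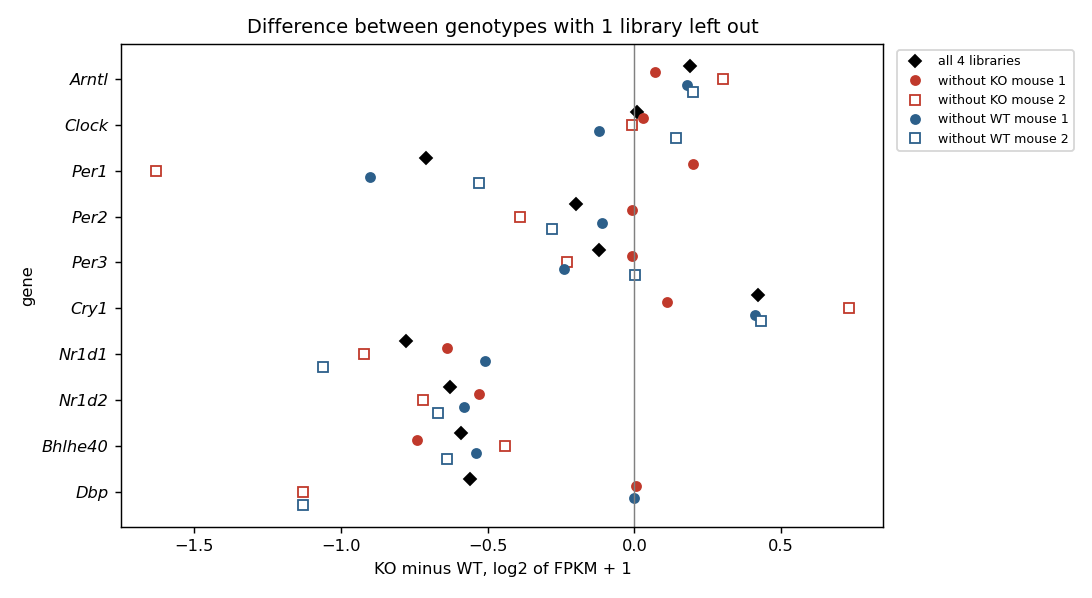
Log2 difference of FPKM + 1 between knockout and wild type for each clock gene with all 4 libraries (diamonds) and with each library left out in turn (red circles and open red squares without knockout mouse 1 and 2, blue circles and open blue squares without wild-type mouse 1 and 2). Nr1d1, Nr1d2 and Bhlhe40 stay below 0 throughout, which the order of their libraries fixes, and Per1 moves to 0.20 without knockout mouse 1.

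Of 9 tested genes of the wider clock loop, 0 passed in either direction. Their median log2 difference was 0.00. Ciart, a repressor of CLOCK and BMAL1, had 2.13 and 2.10 FPKM in the knockout mice, against 1.07 and 2.04 FPKM in the wild-type mice. Both knockout mice lay above both wild-type mice for Ciart, and wild-type mouse 1 stood apart as the lowest. Bhlhe41, given above, was the 1 gene of the 9 with both knockout mice at the bottom, an order that 17.5% of all tested genes had. That order rests on unrounded values, since knockout mouse 1 and wild-type mouse 1 both read 1.63 FPKM.

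Npas2, which can replace Clock, was like Arntl highest in knockout mouse 1, with 6.37 and 4.52 FPKM in the knockout mice, against 4.78 and 4.43 FPKM in the wild-type mice. Cry2 was lowest there, with 11.2 and 16.2 FPKM in the knockout mice, against 13.3 and 13.5 FPKM in the wild-type mice. Tef and Hlf belong to the D-box family of Dbp, and neither had its order of libraries. Tef was lowest in knockout mouse 1, as Dbp was, and was ordered by library as Per1 was, within a 1.19-fold range. Tef had 19.0 and 22.7 FPKM in the knockout mice, against 19.6 and 22.2 FPKM in the wild-type mice, and Hlf had 1.5 and 0.517 FPKM against 1.06 and 1.22 FPKM. Nfil3, which opposes that family at D-boxes, had 8.57 and 8.79 FPKM in the knockout mice, against 9.57 and 8.03 FPKM in the wild-type mice. Rora, an activator at ROR elements, had 4.66 and 4.62 FPKM in the knockout mice, against 4.55 and 5.49 FPKM in the wild-type mice. Arntl2 and Rorb stayed under 0.2 FPKM in every library and were not tested.

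Enzymes and partners that act on clock proteins gave 0 calls among 15 tested genes, with a median log2 difference of 0.04. The kinase gene Csnk1e, which phosphorylates PER, had 17.1 and 18.5 FPKM in the knockout mice, against 15.3 and 16.6 FPKM in the wild-type mice (limma adjusted p = 0.894). Csnk2a1, another kinase subunit, had 16.8 and 18.8 FPKM in the knockout mice, against 16.1 and 14.9 FPKM in the wild-type mice. Btrc, of the ubiquitin ligase that takes PER for degradation, had 4.70 and 4.27 FPKM in the knockout mice, against 4.0 and 4.07 FPKM in the wild-type mice. Prkaa2, a catalytic subunit of AMP kinase, had 3.02 and 3.53 FPKM in the knockout mice, against 3.45 and 4.01 FPKM in the wild-type mice.

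Genes known to be driven daily in peripheral tissues likewise gave 0 calls among 14 tested, and for 5 of them the knockout pair lay below the wild-type pair (17.5% of all tested genes). Their median log2 difference was -0.22. Lpin1, a phosphatidate phosphatase, had 6.98 and 5.90 FPKM in the knockout mice, against 9.82 and 8.21 FPKM in the wild-type mice. Tfrc, the transferrin receptor, had 19.6 and 13.8 FPKM in the knockout mice, against 24.8 and 23.8 FPKM in the wild-type mice. Herpud1 had 74.9 and 90.8 FPKM in the knockout mice, against 99.2 and 106 FPKM in the wild-type mice, and Tspan4 had 19.2 and 15.8 FPKM against 14.7 and 12.8 FPKM. Usp2 and Pdk4, named after their values were seen, had the lowest value in knockout mouse 1 and the highest in wild-type mouse 1, as Dbp did. Usp2 had 1.55 and 2.12 FPKM in the knockout mice, against 2.74 and 1.66 FPKM in the wild-type mice, and Pdk4 had 2.71 and 11.1 FPKM against 21.0 and 9.22 FPKM. Wee1 and Nampt of the same list were instead lowest in knockout mouse 2 and highest in wild-type mouse 2. Knockout mouse 1 was lowest for 6 of the 14 genes (15.9% of all tested genes) and highest for 3 (25.7%).

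Adrenal glucocorticoid, which has its own daily rhythm and also rises in stress, induces Per1 directly. Of 12 tested glucocorticoid-induced genes 0 passed, 10 had a negative log2 difference (median -0.26), and knockout mouse 1 was the lowest library for 9, where it was lowest for 15.9% of all tested genes. Fkbp5, a chaperone of the glucocorticoid receptor, had 4.43 and 4.72 FPKM in the knockout mice, against 9.25 and 6.76 FPKM in the wild-type mice (limma adjusted p = 0.89). Klf9 had 27.0 and 33.9 FPKM in the knockout mice, against 38.9 and 51.6 FPKM in the wild-type mice, and Lcn2 had 81.8 and 141 FPKM against 265 and 163 FPKM. Dusp1 ran the other way, with 134 and 203 FPKM in the knockout mice, against 110 and 97.2 FPKM in the wild-type mice. Tsc22d3, named after its values were seen, was ordered by library as Per1 was, with 49.0 and 144 FPKM in the knockout mice, against 77.8 and 130 FPKM in the wild-type mice. Sgk1 and Zbtb16 of the same list were instead highest in knockout mouse 1 and lowest in knockout mouse 2. Zbtb16 had 6.01 and 1.66 FPKM in the knockout mice, against 5.06 and 3.43 FPKM in the wild-type mice. The part of glucocorticoid in the level of Per1 was not tested.

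Immediate early genes, some of which cyclic AMP signalling induces as it does Per1, were read as well. Of 9 tested, 0 passed, and for 7 the knockout pair lay above the wild-type pair (18.5% of all tested genes), with a median log2 difference of 0.51. Fos had 33.3 and 24.8 FPKM in the knockout mice, against 19.4 and 10.3 FPKM in the wild-type mice, and Fosb had 1.72 and 1.92 FPKM against 0.959 and 0.997 FPKM. Fosb, counted among the 7, reached 1 FPKM in the knockout mice alone, so it entered the test through the genotype where it was high. Jun had 139 and 143 FPKM in the knockout mice, against 108 and 109 FPKM in the wild-type mice, and Ier2 had 71.7 and 75.5 FPKM against 57.8 and 42.2 FPKM.

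Transcripts that follow the daily cycle of body temperature were also read. Of 9 tested 0 passed, and 8 had a negative log2 difference (median -0.14). Cirbp, a cold-inducible RNA-binding protein gene, was the exception, with 47.4 and 22.9 FPKM in the knockout mice, against 25.9 and 22.9 FPKM in the wild-type mice, so that knockout mouse 1 stood 2.07-fold above knockout mouse 2. Rbm3, the other cold-inducible gene of the list, named after its values were seen, went the opposite way between these mice, with 1.57 and 2.16 FPKM in the knockout mice, against 1.99 and 1.97 FPKM in the wild-type mice. The heat shock genes Hsph1 and Hspa1a were lowest in knockout mouse 1. Hsph1 had 10.5 and 20.1 FPKM in the knockout mice, against 25.8 and 23.2 FPKM in the wild-type mice, and Hspa1a had 3.11 and 4.36 FPKM against 3.46 and 6.04 FPKM. Hspa8 had 14 and 13.3 FPKM in the knockout mice, against 17.8 and 24.8 FPKM in the wild-type mice.

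The genes whose pattern lay nearest to the day and dusk arm were found among 12155 tested genes. Likeness was the root mean square distance between log2(FPKM + 1) values centred on their mean, over 4 libraries, which is too few to single out a gene. Nearest to the mean of Per1, Per2, Per3, Nr1d1, Nr1d2 and Dbp were Slc6a2 (distance 0.0308), Ccl5 (0.056), Cxcl1 (0.0596), Fkbp11 (0.0708) and Wfdc21 (0.0767), against a size of 0.354 for the profile itself. Slc6a2, the noradrenaline transporter gene, had 16.3 and 27.5 FPKM in the knockout mice, against 33.2 and 29.4 FPKM in the wild-type mice. Nearest to Arntl were Brat1 (distance 0.0123), Mrps26 (0.0149), Rgl1 (0.0152), Cnksr3 (0.0155) and Zkscan4 (0.0155), against a size of 0.125 for Arntl itself. Brat1 had 6.30 and 5.13 FPKM in the knockout mice, against 4.87 and 5.02 FPKM in the wild-type mice.

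Cell type markers differed between the tissue pieces, and clock genes are active in most cell types. In bulk tissue fewer cells of a type and less RNA per cell cannot be told apart. Over 6 alveolar type 2 genes the summed level was 26094 and 20213 FPKM in the knockout mice, against 26126 and 26622 FPKM in the wild-type mice, and 5 of the 6 had the knockout pair below the wild-type pair, the order also seen for Nr1d1, Nr1d2 and Bhlhe40 (17.5% of all tested genes). Over 6 alveolar type 1 genes it was 2120 and 2704 FPKM in the knockout mice, against 1653 and 1947 FPKM in the wild-type mice, with 3 of the 6 in the opposite order (18.5% of all tested genes). Summed over 6 heart muscle genes the level was 317 and 719 FPKM in the knockout mice, against 1042 and 218 FPKM in the wild-type mice, none of them separated by genotype and none at 0. Summed over 6 fat genes it was 19.5 and 21.1 FPKM in the knockout mice, against 436 and 9.66 FPKM in the wild-type mice. Wild-type mouse 1, where Dbp and Nr1d1 were highest, thus had the most heart and fat transcripts.

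Sums of macrophage and lymphocyte markers were lower in both knockout mice. The neutrophil sum was lowest in knockout mouse 1 and highest in knockout mouse 2. Of 8 alveolar macrophage genes 4 had the knockout pair below the wild-type pair, beside 17.5% of all tested genes, with sums of 414 and 64.1 FPKM in the knockout mice, against 558 and 621 FPKM in the wild-type mice. So did 5 of 7 monocyte and macrophage genes, with sums of 201 and 94.5 FPKM in the knockout mice, against 247 and 239 FPKM in the wild-type mice, and 3 of 7 B and plasma cell genes, with sums of 154 and 93.6 FPKM against 333 and 492 FPKM. For T and NK cells 3 of 9 genes did so, with sums of 58.1 and 33.2 FPKM in the knockout mice, against 69.1 and 62.8 FPKM in the wild-type mice. None of these genes was listed at 0. Cd79a, Cd79b, Cd3d and Ccr2 overlapped between genotypes and were highest in knockout mouse 1. Ighm weighed most in the B and plasma cell sum. It had 69.7 and 36.6 FPKM in the knockout mice, against 224 and 266 FPKM in the wild-type mice. In all of these lists knockout mouse 1, where Per1, Dbp and the REV-ERB genes were lowest, had a higher sum than knockout mouse 2. Over 7 neutrophil genes the sum was 497 and 1391 FPKM in the knockout mice, against 743 and 607 FPKM in the wild-type mice. S100a9 weighed most in it, with 260 and 845 FPKM in the knockout mice, against 418 and 294 FPKM in the wild-type mice. By genotype 1 gene, Csf3r, lay above (18.5% of all tested genes) and 2, Ngp and Camp, lay below (17.5%). Ngp had 0.392 and 4.29 FPKM in the knockout mice, against 10.5 and 21.5 FPKM in the wild-type mice. Endothelial sums were higher, at 1322 and 1510 FPKM in the knockout mice, against 1153 and 1229 FPKM in the wild-type mice, with 4 of 7 genes in that order (18.5% of all tested genes). Melanocyte genes summed to 8.42 and 4.58 FPKM in the knockout mice, against 7.24 and 103 FPKM in the wild-type mice, with Tyr and Tyrp1 at 0 in some libraries. The part of cell content in the clock gene levels was not tested.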

How the data were processed

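Lung RNA of 4 mice was sequenced, 1 library a mouse. The deposited values are FPKM per gene symbol, per the file headers, with 39 symbols listed more than 1 time. The submitters' processing notes list TopHat, Cufflinks, HTSeq, DESeq and GRCm38 with no role for any of them. Strand setting and multiply mapped reads: not given in the sources used here.

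Repeated symbols were summed. Genes that reached 1 FPKM in 2 or more libraries (12573) were taken as log2(FPKM + 1), which understates the change of low genes, and tested with limma 3.58.1 in R 4.3.3 (trended prior, 2 residual and 2.62 prior degrees of freedom, genotype as the sole term, Benjamini-Hochberg at 0.05). This fit was also tested on simulated data. The exact permutation floor was 0.333. FPKM gives no counts, so depth and counting intervals are unknown. The p-values set each difference against the spread between the mice sequenced, pooled in part with that of other genes through the prior.

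Positions and exon overlaps came from GENCODE vM21 (GRCm38), promoter windows from RefSeq (GRCm38.p6). Copies were sought with BLAST 2.17.0 (95% identity or more, 50% of a transcript or more). Tables and figures used Python 3.11.15, pandas 2.3.3, numpy 2.4.6 and matplotlib 3.10.9.

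The clock genes and lists were chosen with earlier results of these data known. Named were the 10 clock genes, the wider loop (1 of its genes is not reported here), up to 4 genes of smallest p in each further list and the 5 genes nearest in pattern to the day and dusk arm and to Arntl. Unnamed gene models and immunoglobulin genes were skipped in the search for nearest genes. The fit was repeated with a pseudocount of 0.1 or 0.5, unfiltered, on genes with a mean FPKM of 5 or more, after quantile normalization or median ratio scaling, with a prior variance held constant, with the mouse number as a replicate block and without each library in turn.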

Additional observations from a re-analysis of the deposited data

How the results depend on the processing

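Under the 12 alternatives, 0 of the 10 clock genes passed, with the smallest adjusted p at 0.408 by limma. Of 118 differences of single clock genes, 113 kept their direction and 5 did not, each in a fit without 1 library. For the genes whose genotypes did not overlap, leaving out a library could not change the direction. Clock lay at -0.12 without wild-type mouse 1 and at -0.01 without knockout mouse 2 (range over the libraries left out -0.12 to 0.14). Per3 lay at 0.0016 without wild-type mouse 2 (range -0.24 to 0.0016). Without knockout mouse 1, Per1 lay at 0.20 (range -1.63 to 0.20) and Dbp at 0.0046 (range -1.13 to 0.0046). Leaving out each library in turn put the median of the repressor and output genes between -0.58 and -0.01, and the count of clock genes with knockout below wild type between 3 and 7, where 27.8% to 39.9% of all tested genes had that order. Per2 and Per3 fell under a mean FPKM of 5 and have no value there. The arm values per mouse kept knockout mouse 1 lowest under both pseudocounts and quantile normalization (-1.97, -1.83 and -1.67).

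Over all genes, the 2 higher calls, the Y-linked Eif2s3y and Ddx3y, became 0 with no filter and 1 among genes with a mean FPKM of 5 or more. The 1 lower call became 0 after quantile normalization, after median ratio scaling, with a prior variance held constant and with a pseudocount of 0.1. With a library left out the calls lay between 0 and 0 in the higher direction and between 0 and 1 in the lower. The mouse numbers name separate animals. Deviations of same-numbered libraries from the mean of their genotype correlated at -0.336 across 12573 genes. With 2 mice a genotype the deviations of its mice mirror each other, so this value cannot show whether mice were paired. With the mouse number as a replicate block 0 genes were higher and 0 lower, and 0 clock genes passed. The cause of these shifts was not tested. FPKM gives no read counts, so what depth limits cannot be stated.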
